A study of Mus musculus with 60 samples.

Results

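Expression of 770 genes in the hypothalamus was compared between vehicle injected mice collected at mid-dark and vehicle injected mice collected at mid-light. The samples were taken from the labels by brain region, tumor status and time of day, and 7 of the 56 samples with values in the series met these terms, 3 from mid-dark (mice 4, 8 and 28) and 4 from mid-light (mice 2, 6, 22 and 30). All were female Balb/C mice from Charles River, 13 weeks old at collection, which had been given DMEM without cells into inguinal mammary glands 25 days earlier, as controls for mice given 67NR mammary carcinoma cells. Lights went off at ZT14, where ZT0 is lights on, so that mid-light was ZT7 and mid-dark ZT19. Animals were perfused with PBS, and whole brains were kept in RNAlater before the hypothalamus was dissected. The labels list 3 further vehicle hypothalamus samples, of mice 12 and 32 at mid-dark and mouse 10 at mid-light, for which no values were used here; they state that outliers by raw data were left out. Each mouse was collected at 1 time of day only, so time of day and the collection session cannot be told apart. Values came from the nanoString nCounter Mouse Neuroinflammation Panel, in which a barcoded probe pair is counted for each transcript, and are given on the log2 scale after the normalization of the authors.

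The hypothalamus sets feeding, body temperature, hormone release and the sleep-wake cycle, and it holds the suprachiasmatic nucleus, the master circadian clock of mammals. Mice are active in the dark phase and mostly sleep in the light phase. The tissue assayed was a mixture of neurons, astrocytes, microglia, vessel cells and oligodendrocytes, the cells that wrap axons in myelin. In such bulk samples, fewer cells of a type and less RNA per cell cannot be told apart.

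At mid-dark, transcripts of the oligodendrocyte gene Opalin and of the fructose transporter gene Slc2a5 were lower than at mid-light. These were the 2 of 770 genes (0.26%) with an adjusted p under 0.05 in limma, and no gene passed in the other direction. The fit took its spread from all 17 hypothalamus samples, those of tumor-bearing mice included, and with the 7 vehicle samples alone no gene passed (54 had an unadjusted p under 0.05). At an unadjusted p under 0.05 there were 53 genes (6.88%), of which 26 were higher at mid-dark (3.38%) and 27 lower (3.51%). For 61 genes (7.92%) the values of the 3 mid-dark mice and the 4 mid-light mice did not overlap, 32 of them higher and 29 lower at mid-dark. An exact two-sided permutation test of 3 against 4 mice cannot give a p under 0.0571. With no difference between the groups, a share of 0.0571 of genes would be separated in this way on average. Lack of overlap in a single gene is therefore weak evidence. Over the whole panel the median dark minus light difference was -0.0015 and the median size of a difference 0.0926 on the log2 scale. Of the 53 genes, 13 had a difference of at least 0.5.

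**Figure D1:**
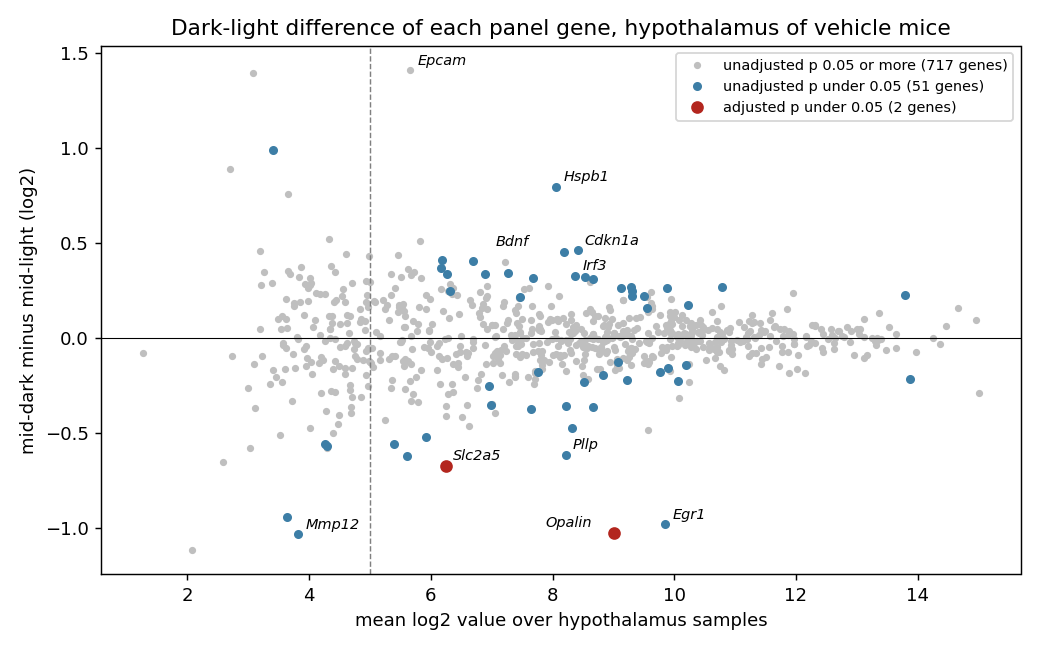
Dark minus light difference (log2) of each of the 770 genes against its mean log2 value over all hypothalamus samples, vehicle mice. Opalin and Slc2a5, the genes with an adjusted p under 0.05, lie at -1.02 and -0.67, and the scatter widens to the left of the dashed line at a mean of 5.

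The samples differed from vehicle hippocampus and vehicle brain stem in region markers. Slc17a6, the vesicular glutamate transporter of subcortical neurons, had a median of 13.2 in the 7 samples (13.0 to 13.4). Its median was 8.76 in vehicle hippocampus and 12.9 in vehicle brain stem. Slc17a7, its cortical and hippocampal counterpart, had a median of 8.20 against 13.0 in hippocampus, and ranged from 6.17 to 9.05 among the 7 samples. Dlx1, a transcription factor of forebrain inhibitory neurons, had a median of 8.34 in hypothalamus, 7.20 in hippocampus and 3.23 in brain stem. Uty and Kdm5d, which lie on the Y chromosome and which female mice lack, had medians of 4.25 and 3.57, and 140 of the 770 genes had a hypothalamus mean under 5. RNA concentrations were 419.9 to 1048 ng/µl at mid-dark and 433.4 to 1158 ng/µl at mid-light. Each sample correlated with the mean of the rest of its group over genes with an r of 0.990 to 0.995.

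Opalin encodes a membrane glycoprotein of oligodendrocytes and myelin. Its log2 value at mid-dark was 8.48 in mouse 4, 8.68 in mouse 8 and 8.10 in mouse 28, and at mid-light 9.75 in mouse 2, 9.65 in mouse 6, 9.37 in mouse 22 and 9.00 in mouse 30. The groups did not overlap, and the lowest mid-light value was in mouse 30. Opalin thus fell by 1.02 at mid-dark (standard error 0.18, 95% confidence interval -1.40 to -0.65, adjusted p = 0.0133 in limma), which is 2.03-fold less transcript. The adjusted p was 0.0608 without mouse 4, 0.0974 without mouse 28, 0.0568 without mouse 2 and 0.0646 without mouse 6, and 0.258 when only the 7 vehicle samples were fitted. The difference itself stayed between -1.17 and -0.86 whichever mouse was left out.

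Pllp, which encodes plasmolipin, a proteolipid of the myelin membrane, was also lower in every mid-dark mouse than in any mid-light mouse. Its values were 8.01, 8.18 and 7.76 in mice 4, 8 and 28 at mid-dark and 8.78, 8.65, 8.61 and 8.36 in mice 2, 6, 22 and 30 at mid-light. The difference was -0.61 (standard error 0.14), with an adjusted p of 0.0958 in limma. It was under 0.05 in 4 of 18 settings, among them the 3 brain regions with the mouse as a block (0.0146) and the fit without mouse 30 (0.0373), the 1 of 7 fits with a mouse left out that passed. It reached 0.336 without mouse 6 and was 0.258 with the vehicle samples alone. Mouse 28 was lowest at mid-dark and mouse 30 lowest at mid-light for both genes.

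Of 29 genes of oligodendrocytes and myelin on the panel, 4 had an unadjusted p under 0.05 (13.8%, against 6.88% of all genes), Opalin and Pllp lower at mid-dark and Erbb3 and Myrf higher. Of the 29 differences 17 were positive, against 380 of all 770. This list and those of other cell types and pathways were chosen with earlier results of these data known. Their shares are therefore no independent evidence. Erbb3, a receptor for neuregulins, was higher by 0.32 (standard error 0.11, adjusted p = 0.358), and Myrf, the transcription factor that oligodendrocytes need to make myelin, by 0.26 (standard error 0.11, adjusted p = 0.605). The 27 list genes besides Opalin and Pllp had differences of -0.39 to 0.32 with a median of 0.03. Among them were the structural genes Mag (-0.13, standard error 0.18), Mog (-0.14, 0.18), Cnp (-0.10, 0.10) and Mobp (0.13, 0.14), in which the standard error followed each difference. Mbp, Olig1 and Olig2 were not among the genes analysed here.

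The mice differed in the level of the whole list. The mean log2 value of those 27 genes was 9.87, 10.0 and 9.56 in mid-dark mice 4, 8 and 28 and 9.93, 9.88, 9.77 and 9.63 in mid-light mice 2, 6, 22 and 30, so that mice 28 and 30 were lowest in their groups. The groups overlapped, and the mean difference was 0.02. Slc17a7 was also lowest in mouse 28 at mid-dark (6.69) and mouse 30 at mid-light (6.17), and the part of this in the results was not tested. Set against this mean in the same mouse, Opalin stood at -1.39, -1.35 and -1.46 in mice 4, 8 and 28 and at -0.18, -0.23, -0.41 and -0.63 in mice 2, 6, 22 and 30. Pllp stood at -1.86, -1.85 and -1.80 in the mid-dark mice and at -1.15, -1.23, -1.16 and -1.28 in the mid-light mice, in the same order. These offsets compare mice and not genes, since probes differ in efficiency, and they carry no test because they were computed after the values had been seen. On this scale the dark minus light differences were -1.04 for Opalin and -0.63 for Pllp, and neither gene overlapped between the groups.

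**Figure D2:**
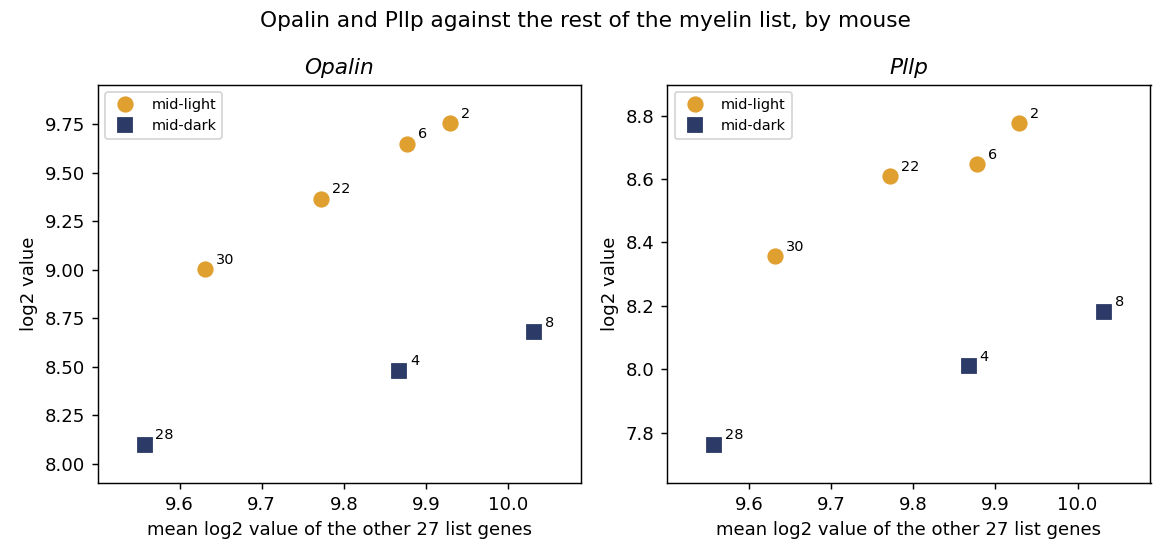
Log2 value of Opalin (left) and Pllp (right) in each vehicle mouse against the mean log2 value of the other 27 oligodendrocyte and myelin genes, with the mouse number beside each point (squares mid-dark, circles mid-light). The groups share the range of the horizontal axis, while every mid-dark point lies below every mid-light point on the vertical axis.

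Slc2a5 encodes the fructose transporter GLUT5, which in the brain is found mainly on microglia. Its value was 5.73, 5.91 and 5.92 in mid-dark mice 4, 8 and 28 and 6.60, 6.33, 6.52 and 6.65 in mid-light mice 2, 6, 22 and 30. All mid-dark values lay below all mid-light values, and the spread within either group was small. The gene fell by 0.67 at mid-dark (standard error 0.10, 95% confidence interval -0.89 to -0.45, adjusted p = 0.00858 in limma), or 1.59-fold. Leaving out mouse 4 raised the adjusted p to 0.0608, and fitting the vehicle samples alone raised it to 0.190. In a fit over the 3 brain regions, in which the gene has a spread estimated from all regions, the adjusted p was 0.325 with a difference of -0.66.

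Of 20 genes of microglia on the panel, 2 had an unadjusted p under 0.05, 1 in each direction, a share of 10% near the 6.88% of all genes. Of the 20 differences 15 were positive (75%, against 49.4% of all genes), with a median of 0.04. Irf8, a transcription factor of microglia and macrophages, was 6.29, 6.39 and 6.27 in the mid-dark mice and 5.92, 5.92, 5.65 and 6.33 in the mid-light mice. Mouse 30, the highest of the mid-light mice, overlapped the mid-dark mice, and the difference was 0.37 (standard error 0.12, adjusted p = 0.311). Without mouse 30 the difference was 0.49, with an adjusted p of 0.0237, the 1 of 18 settings in which it was under 0.05 (highest 0.693). Cx3cr1, the microglial fractalkine receptor, differed by -0.16 (standard error 0.07, adjusted p = 0.695). P2ry12 (-0.08, standard error 0.11), Tmem119 (0.03, 0.08) and Csf1r (-0.06, 0.09), also on the microglial list, overlapped between the groups.

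The sequences upstream of the start sites of Opalin, Pllp and Slc2a5 are printed because these 3 genes were lower at mid-dark without overlap of the mice and were measured with the smallest p values. They are the 250 bases before the annotated start in RefSeq on GRCm38.p6, 5′ to 3′ on the strand of the gene, at chr19:41077114-41077363 (minus strand) for Opalin, chr8:94696243-94696492 (minus strand) for Pllp and chr4:150119094-150119343 (plus strand) for Slc2a5. All are in lower case, since none of the motifs searched was found in them.
Opalin: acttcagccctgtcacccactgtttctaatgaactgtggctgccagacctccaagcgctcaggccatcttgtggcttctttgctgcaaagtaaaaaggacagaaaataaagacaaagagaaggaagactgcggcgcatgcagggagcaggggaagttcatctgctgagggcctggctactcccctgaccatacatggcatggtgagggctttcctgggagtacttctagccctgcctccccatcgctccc
Pllp: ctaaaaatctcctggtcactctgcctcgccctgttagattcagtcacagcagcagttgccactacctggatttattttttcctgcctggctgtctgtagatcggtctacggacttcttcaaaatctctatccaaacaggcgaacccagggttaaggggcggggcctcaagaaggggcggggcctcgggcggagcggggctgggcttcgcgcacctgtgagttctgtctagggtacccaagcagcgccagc
Slc2a5: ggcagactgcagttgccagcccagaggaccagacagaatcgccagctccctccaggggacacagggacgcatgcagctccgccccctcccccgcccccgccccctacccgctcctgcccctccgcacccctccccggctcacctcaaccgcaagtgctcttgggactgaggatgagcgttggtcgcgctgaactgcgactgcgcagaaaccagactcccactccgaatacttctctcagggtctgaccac
The motifs searched on both strands were the E-box CACGTG bound by clock factors, the D-box TTATGTAA, the cAMP response element TGACGTCA and the heat shock element GAANNTTC. Of the 32851 windows of the same length in the table, 6.02% held the E-box, 0.819% the D-box, 1.55% the cAMP response element and 6.69% the heat shock element. Of the 770 genes, 601 had a window in that table. A match or its lack describes these letters in this window only.

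Hspb1 showed the widest difference towards mid-dark among genes with an unadjusted p under 0.05 and a mean of at least 5. It encodes a small heat shock protein that binds unfolded proteins and actin filaments. Its value was 8.82, 8.74 and 8.59 in mid-dark mice 4, 8 and 28 and 7.80, 7.98, 8.25 and 7.64 in mid-light mice 2, 6, 22 and 30. All mid-dark mice were above all mid-light mice, and mouse 22 was the highest of the latter. The difference was 0.80 (standard error 0.21, 1.74-fold), with an adjusted p of 0.164 in limma. With the 3 brain regions in one fit and the mouse as a block the adjusted p was 0.0146. It was under 0.05 in 2 of 18 settings, both over the 3 regions, and reached 0.422 without mouse 8.

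The 250 bases upstream of Hspb1 held 2 heat shock elements GAANNTTC, shown in capitals, which start 117 and 97 bases before the annotated start (chr5:135887669-135887918, plus strand, GRCm38.p6, RefSeq). It is shown because Hspb1 is a heat shock gene.
Hspb1: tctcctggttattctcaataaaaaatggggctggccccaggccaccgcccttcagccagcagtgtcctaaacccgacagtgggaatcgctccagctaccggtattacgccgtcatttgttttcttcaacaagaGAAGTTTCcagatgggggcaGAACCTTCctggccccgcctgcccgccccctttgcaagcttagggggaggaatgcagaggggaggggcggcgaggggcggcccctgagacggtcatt
Of the panel genes with a window, 7.65% held this motif.

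Of 6 chaperone and protein quality genes on the panel, Hspb1 and Calr had an unadjusted p under 0.05 (33.3%, against 6.88% of all genes). Both were higher at mid-dark, as were 3.38% of all genes at this p. The list was chosen with earlier results of these data known, which can raise such a share. Calr, a calcium-binding chaperone of the endoplasmic reticulum, was 14.01, 13.90 and 14.01 in the mid-dark mice and 13.68, 13.77, 13.77 and 13.77 in the mid-light mice. The groups did not overlap and differed by 0.23 (standard error 0.06, adjusted p = 0.251). Several mice share a value for Calr because quantile normalization gives genes of the same rank the same value. Bag3, a cochaperone, differed by 0.26 (standard error 0.13, unadjusted p = 0.0578), and Bag4 and Psmb8 by -0.15 and -0.03.

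**Figure D3:**
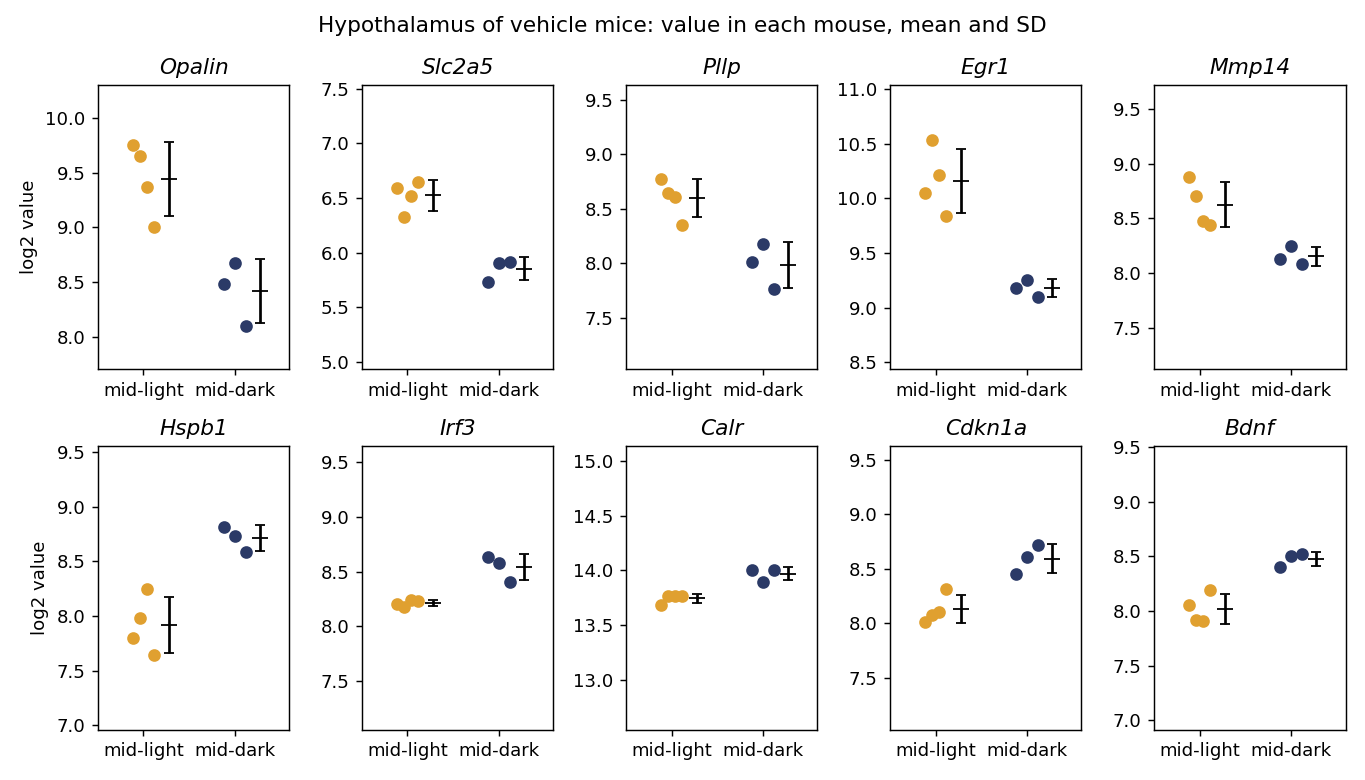
Log2 value in each vehicle mouse at mid-light (4 mice) and mid-dark (3 mice) for 10 genes, with the mean and SD of each group beside the points; each panel spans the same range of the log2 scale. The 2 groups of points do not overlap in any of the 10 panels, and Opalin, Egr1 and Hspb1 show the widest gaps between means. The 10 genes were picked from those with the smallest p values of this contrast, so the lack of overlap is no separate evidence. Ccng2, Srxn1 and Tmc7 also had a smaller p than Bdnf and are not shown. Of these, Tmc7 overlapped between the groups, and Ccng2 and Srxn1 did not.

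Egr1, an immediate early transcription factor induced by neuronal activity, was lower at mid-dark. Its value was 9.18, 9.26 and 9.10 in mice 4, 8 and 28 and 10.05, 10.53, 10.21 and 9.84 in mice 2, 6, 22 and 30. The 3 mid-dark mice lay within a narrow band below all mid-light mice. The difference was -0.98 (standard error 0.23, 1.97-fold lower), with an adjusted p of 0.0958 in limma.

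Of 13 immediate early and activity genes on the panel, Egr1 and Bdnf had an unadjusted p under 0.05, a share of 15.4% against 6.88% of all genes. Of the 13 differences 10 were positive (76.9%, against 49.4% of all genes), with a median of 0.11. Bdnf, a neurotrophin whose transcription depends on activity, was 8.40, 8.50 and 8.52 in the mid-dark mice and 8.06, 7.92, 7.91 and 8.19 in the mid-light mice. It was higher in all mid-dark mice, by 0.46 (standard error 0.14, adjusted p = 0.290). Fos, which is induced together with Egr1 in many settings, was 9.46, 9.15 and 9.18 in the mid-dark mice and 9.89, 10.27, 9.48 and 9.36 in the mid-light mice, an overlap through mouse 30 and a difference of -0.49 (standard error 0.35, unadjusted p = 0.182). Arc differed by 0.08 (standard error 0.10), Homer1 by -0.01 (0.06) and Jun by 0.19 (0.12).

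Irf3, the transcription factor that starts the type I interferon response to foreign nucleic acid, was 8.64, 8.58 and 8.41 in mid-dark mice 4, 8 and 28 and 8.20, 8.18, 8.24 and 8.23 in mid-light mice 2, 6, 22 and 30. The mid-light mice lay close together and below every mid-dark mouse. The difference was 0.33 (standard error 0.08, 1.26-fold), with an adjusted p of 0.0958 in limma. Of 28 interferon genes, 4 had an unadjusted p under 0.05 (14.3%, against 6.88% of all genes), Irf3 and Irf8 higher at mid-dark and Ifnar2 and H2-T23 lower. Ifnar2, a chain of the type I interferon receptor, differed by -0.13 (standard error 0.05), and H2-T23, a nonclassical MHC gene, by -0.52 (standard error 0.21). Interferon-stimulated genes such as Ifitm3 (0.02, standard error 0.22) and Irf7 (0.04, standard error 0.13) differed by less than their errors, and the median of the list was -0.0036. In the NF-kappaB list, Ikbkg, the regulatory subunit of the IkappaB kinase, differed by -0.20 (standard error 0.07, adjusted p = 0.365) and Myd88, the adaptor of Toll-like receptors, by 0.25 (standard error 0.12, adjusted p = 0.710), as the only 2 of 26 genes with an unadjusted p under 0.05, a share of 7.69% near that of all genes.

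Cdkn1a, which encodes the cell cycle inhibitor p21 and is a known target of the glucocorticoid receptor and of p53, was higher at mid-dark. It was 8.45, 8.61 and 8.72 in mice 4, 8 and 28 and 8.02, 8.08, 8.11 and 8.31 in mice 2, 6, 22 and 30, without overlap. The difference was 0.46 (standard error 0.14, adjusted p = 0.290). Of 6 genes linked to glucocorticoids it was the 1 with an unadjusted p under 0.05 (16.7%, against 6.88% of all genes). Fkbp5, a cochaperone of the receptor, differed by 0.27 (standard error 0.18, unadjusted p = 0.156) and Hsd11b1, which regenerates active glucocorticoid within cells, by 0.20 (standard error 0.11). Ccng2, an unconventional cyclin, differed by 0.26 (standard error 0.08), Srxn1, which repairs oxidized peroxiredoxins, by 0.27 (standard error 0.08) and Tmc7 by 0.31 (standard error 0.09), all with an adjusted p of 0.290. Gclc, the enzyme that limits glutathione synthesis, differed by -0.22 (standard error 0.09), so the 2 of 15 genes against oxidative stress with an unadjusted p under 0.05 (13.3%) went in opposite directions. Of 14 genes of the IGF and PI3 kinase pathway, the receptor gene Igf1r (0.22, standard error 0.08, adjusted p = 0.447) and the kinase subunit gene Pik3r5 (-0.56, standard error 0.26, with a mean under 5) had an unadjusted p under 0.05 (14.3%). Of 22 autophagy genes 1 did (4.55%), the cargo receptor gene Optn (-0.18, standard error 0.06, adjusted p = 0.408), and Tbc1d4 was next (0.21, standard error 0.12).

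The core clock genes Per1, Per2, Cry1, Cry2, Clock and Nr1d1 were not among the genes analysed here. Of 9 genes linked to the clock in other ways, Kdm5a, a histone demethylase that binds CLOCK and BMAL1, had an unadjusted p under 0.05, with values of 10.06, 10.11 and 10.13 in the mid-dark mice and 10.25, 10.21, 10.24 and 10.25 in the mid-light mice and a difference of -0.14 (standard error 0.06, adjusted p = 0.687). The coactivator Crebbp differed by 0.08 (standard error 0.06) and Sirt1 by -0.01 (0.08). The share of this list was 11.1%, a single gene of 9, against 6.88% of all genes. Of 57 chromatin genes, 2 had an unadjusted p under 0.05, Kdm5a and Ezh1 (-0.23, standard error 0.09), both lower at mid-dark. Their share was 3.51%, against 6.88% of all genes in either direction and 3.51% of all genes lower at this p.

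Mmp14, a membrane-bound matrix metalloproteinase, was 8.13, 8.25 and 8.08 in the mid-dark mice and 8.88, 8.71, 8.48 and 8.44 in the mid-light mice. The groups did not overlap and differed by -0.47 (standard error 0.11, adjusted p = 0.0958). Msn, which links the plasma membrane to actin, differed by -0.37 (standard error 0.12), and S1pr3, a receptor for sphingosine-1-phosphate, by -0.36 (standard error 0.12), with adjusted p values of 0.311 and 0.358. Mmp12, macrophage elastase, differed by -1.03 (standard error 0.33, adjusted p = 0.311), but from values of 3.62, 3.04 and 2.70 against 4.31, 4.63, 4.03 and 3.66, which lie near those of Uty and Kdm5d.

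Markers of the other cell types were measured beside these genes. None of 31 neuronal genes and none of 15 endothelial genes had an unadjusted p under 0.05 in limma, nor an adjusted p under 0.05. Since 6.88% of all genes were under this p, counts of 0 in lists of this length say little about these cell types. Their median differences were -0.01 and -0.03. The smallest p values among them were those of the glutamate receptor gene Gria1 (-0.15, standard error 0.07) and Lingo1 (-0.32, standard error 0.18), and of the vessel genes Icam2 (-0.13, standard error 0.08) and Emcn (0.12, standard error 0.08). None of the 8 genes that mark the borders of the dissected region did so either, with Reln (0.22, standard error 0.16) and Dlx2 (-0.26, standard error 0.25) first. Of 13 astrocyte genes 3 did (23.1%): the glutamate transporter gene Slc1a3 (-0.21, standard error 0.07), Gdpd2 (-0.36, standard error 0.13) and, in the opposite direction, Nwd1 (0.25, standard error 0.08). Slc1a3 was 13.90 in all 4 mid-light mice and 13.68, 13.61 and 13.77 at mid-dark. The equal mid-light values are ties from quantile normalization and do not measure the spread between mice. Calr took the values 13.68, 13.77 and 13.90 as well, so the differences of Slc1a3 and Calr are not independent of each other. The summed level of the astrocyte list was 15.33 to 15.41 at mid-dark and 15.43 to 15.46 at mid-light on the log2 scale, without overlap, a sum in which the most abundant genes weigh most. The mean log2 value of the same genes overlapped, at 9.88 to 9.94 and 9.87 to 10.04. The summed level of the microglial list was 13.86 to 14.00 and 13.78 to 13.95, and of the myelin list 16.17 to 16.72 and 16.16 to 16.64, both with overlap. Of 28 genes of blood leukocytes, 26 had a mean under 5, and 1 had an unadjusted p under 0.05, the natural killer receptor gene Klrd1 (-0.94, standard error 0.41). Ttr, the marker of choroid plexus, was 4.79 to 5.20 in the 7 samples. The part of cell composition in the differences above was not tested.

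**Figure D4:**
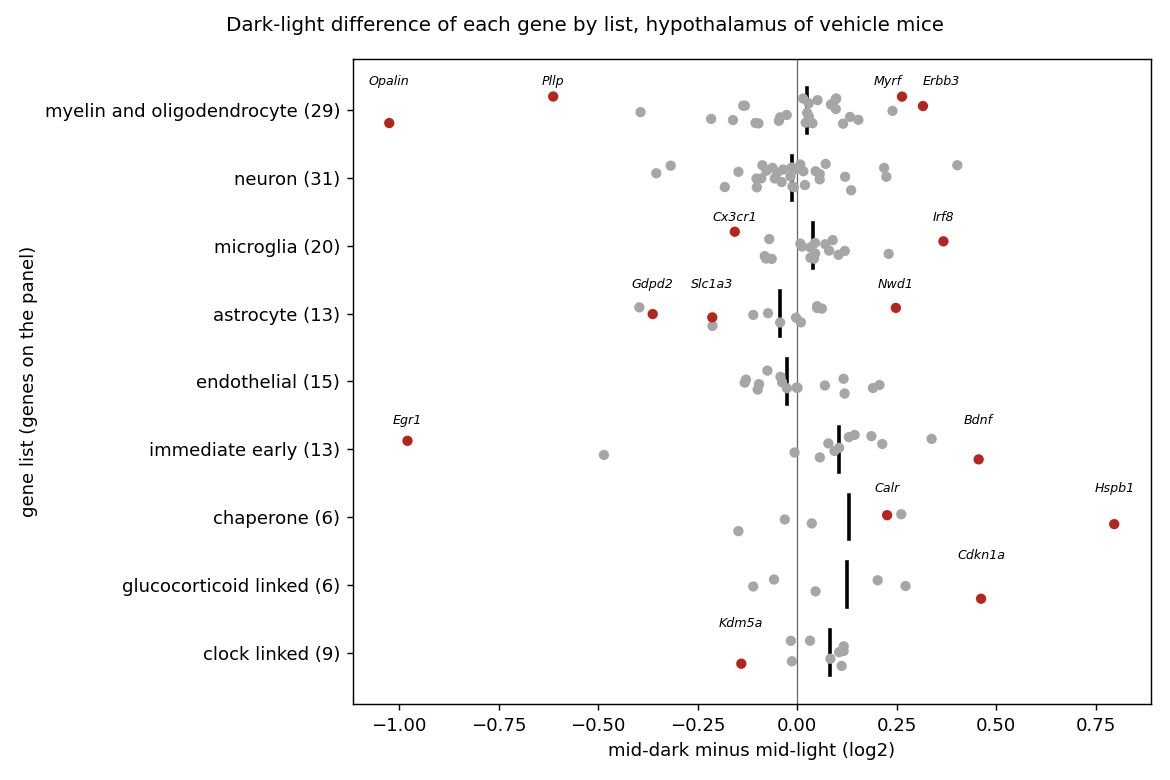
Dark minus light difference (log2) of each gene in 9 gene lists, with the number of genes on the panel in parentheses, a bar at the list median and red points for genes with an unadjusted p under 0.05. List medians lie between -0.04 and 0.13, while single genes such as Opalin, Egr1 and Hspb1 lie far from their own list.

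Of the 13 genes that the panel provides as references, Lars, a leucyl-tRNA synthetase, differed by -0.23 (standard error 0.08, adjusted p = 0.358) and Cnot10, a subunit of the deadenylase complex, by 0.16 (standard error 0.06, adjusted p = 0.532). Lars and Cnot10 were the 2 of the 13 with an unadjusted p under 0.05 in limma (15.4%, against 6.88% of all genes). The widest difference was that of Asb10, at -0.33. The median of the 13 was 0.03, and subtracting their mean from each sample left Opalin and Slc2a5 as the 2 called genes. The widest positive difference of genes with a mean of at least 5 was that of Epcam, an epithelial adhesion molecule, at 1.41 (standard error 0.68, adjusted p = 0.711). Epcam was 7.84, 6.87 and 4.79 in mid-dark mice 4, 8 and 28 and 3.46, 5.52, 6.02 and 5.36 in mid-light mice 2, 6, 22 and 30. The groups overlapped widely, and mouse 28 lay below 3 of the mid-light mice. The difference was 0.74 without mouse 4, 0.87 without mouse 2 and 2.27 without mouse 28. Lcn2, an iron-binding acute phase protein, differed by 0.51 (standard error 0.74, adjusted p = 0.983).

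The same contrast was made in the hypothalamus of 10 other mice of the study, which bore 67NR tumors, 5 at each time of day. There 8 genes (1.04%) had an adjusted p under 0.05 in limma and 75 (9.74%) an unadjusted p under 0.05. Of the 53 genes from vehicle mice, 44 (83.0%) had a difference of the same sign in tumor-bearing mice, against 477 (61.9%) of all 770 genes. An unadjusted p under 0.05 with the same sign was found for 22 (41.5%) of the 53, against 61 (7.92%) of all genes. No mouse is in both contrasts, but both use the same estimate of spread, and both tumor groups were collected at the same times of day.

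Opalin in tumor-bearing mice was 8.34 to 8.56 at mid-dark and 9.29 to 9.85 at mid-light, a difference of -1.07 (standard error 0.15, adjusted p = 0.000979). Pllp differed by -0.69 (standard error 0.11, adjusted p = 0.00367), Irf3 by 0.41 (standard error 0.06, adjusted p = 0.00302), Egr1 by -1.09 (standard error 0.19, adjusted p = 0.00578) and Nwd1 by 0.32 (standard error 0.07, adjusted p = 0.0194). For these 5 genes the sign was that of vehicle mice, each with an unadjusted p under 0.05 there. The other 3 genes called in tumor-bearing mice were Lair1 (0.51), Cldn5 (0.59) and Gadd45g (-0.46), which in vehicle mice differed by 0.15, 0.21 and 0.06. Hspb1 (0.49, standard error 0.17), Slc2a5 (-0.33, standard error 0.09) and Mmp14 (-0.22, standard error 0.09) had the sign of vehicle mice with adjusted p values of 0.310, 0.0997 and 0.379.

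The test of the difference between both contrasts gave no gene with an adjusted p under 0.05 in limma and 20 genes (2.6%) with an unadjusted p under 0.05. The vehicle minus tumor difference was 0.04 for Opalin (standard error 0.23), 0.08 for Pllp (0.18), -0.08 for Irf3 (0.10), 0.11 for Egr1 (0.30) and 0.31 for Hspb1 (0.27). For Slc2a5 it was -0.34 (standard error 0.14, unadjusted p = 0.0236). S1pr3 had a vehicle minus tumor difference of -0.44 (standard error 0.16, unadjusted p = 0.0140).

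Hippocampus and brain stem of the vehicle mice were set beside hypothalamus in a fit over all samples, with the mouse as a block because the regions came from the same animals. In this fit 3 genes had an adjusted p under 0.05 in hypothalamus (0.39%), Opalin, Pllp and Hspb1, against 40 in hippocampus (5.19%) and 14 in brain stem (1.82%). The numbers of mice were 10 in hippocampus and 9 in brain stem against 7 in hypothalamus.

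Opalin was 8.64 to 8.82 at mid-dark and 9.38 to 9.91 at mid-light in hippocampus, and 8.82 to 9.07 and 10.06 to 10.43 in brain stem. Its differences were -1.04 (standard error 0.13) in hippocampus and -1.28 (0.14) in brain stem. Those of Pllp were -0.84 (0.12) and -0.78 (0.12), and those of Hspb1 were 0.83 (0.15) and 0.74 (0.16). Calr differed by 0.49 (0.07) in hippocampus and 0.37 (0.08) in brain stem, Irf3 by 0.26 (0.07) and 0.36 (0.07), Mmp14 by -0.33 (0.10) and -0.51 (0.11), Nwd1 by 0.34 (0.06) and 0.28 (0.06) and Cdkn1a by 0.35 (0.11) and 0.65 (0.12). Lars differed by -0.29 (0.06) and -0.23 (0.06), and Ifnar2 by -0.30 (0.06) and -0.24 (0.06). These were the 10 genes with an adjusted p under 0.05 in both regions, which share their mice with the hypothalamus samples, so that the regions are not independent of each other.

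Slc2a5 differed by -0.07 (standard error 0.21) in hippocampus and -0.01 (0.22) in brain stem. In hippocampus its values were 4.75 to 5.29 at mid-dark and 4.55 to 5.67 at mid-light, around the limit of 5 used here for low values. In brain stem they were 5.60 to 6.02 and 5.60 to 5.92. The hypothalamus minus hippocampus difference for this gene was -0.59 (standard error 0.31, unadjusted p = 0.0641) and the hypothalamus minus brain stem difference -0.65 (standard error 0.32, unadjusted p = 0.0480). Egr1 differed by -0.39 (0.22) in hippocampus and -0.34 (0.24) in brain stem, and its region differences had unadjusted p values of 0.0697 and 0.0591. Bdnf, at 0.46 in hypothalamus, differed by -0.08 (0.12) in hippocampus and 0.40 (0.12) in brain stem, with a hypothalamus minus hippocampus difference of 0.53 (standard error 0.17, unadjusted p = 0.00342, adjusted p = 0.383).

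No gene had an adjusted p under 0.05 in limma for either region difference. At an unadjusted p under 0.05 there were 39 genes (5.06%) for hypothalamus minus hippocampus and 13 (1.69%) for hypothalamus minus brain stem. For Opalin the region differences were 0.01 (standard error 0.20) and 0.25 (0.20), for Pllp 0.23 (0.17) and 0.17 (0.17) and for Hspb1 -0.02 (0.22) and 0.08 (0.23). Calr was the gene among those called in both other regions whose hypothalamus difference was smaller than that in hippocampus at an unadjusted p under 0.05, by -0.27 (standard error 0.11, unadjusted p = 0.0142, adjusted p = 0.845).

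**Figure D5:**
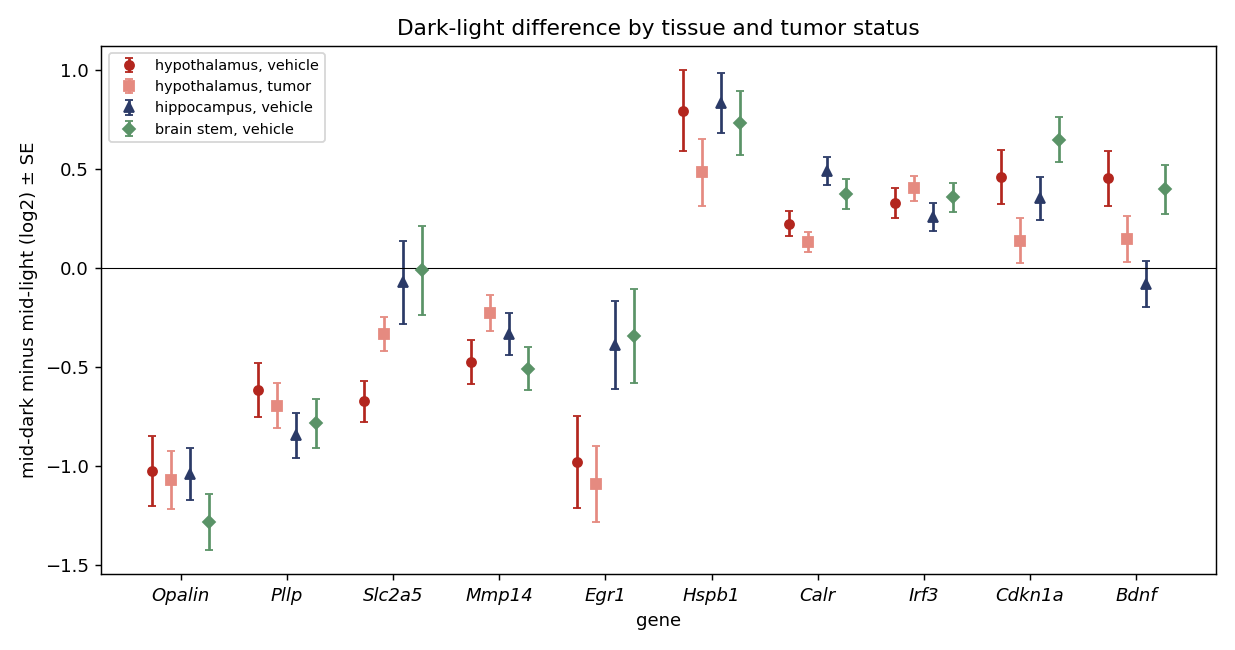
Dark minus light difference (log2) with its standard error for 10 genes in hypothalamus of vehicle mice, hypothalamus of tumor-bearing mice, and hippocampus and brain stem of vehicle mice. Both hypothalamus sets come from the fit to hypothalamus samples, and hippocampus and brain stem from the fit over all regions. The error bars of these fits rest on different estimates of spread and are not comparable. In the fit over all regions Slc2a5 differed by -0.66 in vehicle hypothalamus (standard error 0.25, adjusted p = 0.325 in limma). Opalin and Pllp lie below 0 and Hspb1, Calr, Irf3 and Cdkn1a above 0 in all 4 sets. The sets of vehicle mice share animals. Slc2a5 is near 0 in hippocampus, where its level is low, and in brain stem. Bdnf lies within its standard error of 0 in hippocampus.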

How the data were processed

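Total RNA from hypothalamus, hippocampus and brain stem was assayed on nCounter cartridges. The authors subtracted negative background and normalized to positive controls and to codeset content in nSolver. Quantile normalization in Partek followed, and the log2 values of 770 genes were deposited. The submitters' processing notes name Partek, with no version given. An empty last row was dropped, and there were 0 columns of other samples. No raw counts entered the work. Counting depth is therefore unknown for every sample, and precision rests on how many mice there were. Quantile normalization removes any shift shared by all genes of a sample and gives tied values to genes of equal rank.

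Groups came from the labels (brain region, tumor status, time of collection, mouse number), with separate mice as replicates. A linear model with 4 group means was fitted to the 17 hypothalamus samples in R 4.3.3 with limma 3.58.1, and vehicle mid-dark minus vehicle mid-light was tested with Benjamini-Hochberg adjustment over all 770 genes. The methods name Student's t-test for comparing classes, and ANOVA for tumor against vehicle within a region and phase. Fitting all 4 groups together was a choice made here, and it decides the calls. A second model took all regions with the mouse number as a random block, since regions of the same number came from the same animal (consensus correlation 0.136). The first model was tested on simulated data for the vehicle mid-dark minus mid-light contrast. The model over all regions and the other contrasts were not. Plots were drawn with matplotlib 3.10.9. Upstream sequences came from RefSeq on GRCm38.p6.

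The members and gene lists were chosen with earlier results of these data known. Named genes were the called genes, those with the smallest p filling each direction to 10, the 3 widest differences in each direction among genes averaging 5 or more on the log2 scale, the 2 genes with the smallest p of each list of 5 or more genes, and Uty and Kdm5d. A gene that this rule names is not reported here. Other list members, the tumor-called genes and the myelin offsets were named after their values were seen. The counts without overlap under the alternatives were added after the data were seen. Alternatives covered ordinary p values, the samples fitted, a filter on low values, scaling, the prior variance, array weights, RNA concentration as a covariate, the block and leaving out each mouse.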

Additional observations from a re-analysis of the deposited data

Results flagged for a closer look

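Among 45 named genes, the 4 mid-light values were tested for a single mouse far from the others with Dixon's ratio, which by chance marks about 1 in 20 groups. It marked 3 genes, each in mouse 2. Calr was 13.68 in mouse 2 and 13.77 in each of the other mid-light mice. Those 3 values are tied by quantile normalization, which sets the ratio at its maximum whatever the gap, so this mark says nothing about mouse 2. Lars was 10.2 in mouse 2 and 10.09 to 10.11 in the others. Ikbkg was 8.99 in mouse 2 and 8.86 to 8.88 in the others. For Lars and Ikbkg, both lower at mid-dark, mouse 2 was on the side away from the mid-dark mice. The groups of 3 mid-dark mice were not examined in this way.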

How the results depend on the processing

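The count of genes with an adjusted p under 0.05 was 2, Opalin and Slc2a5, also with ordinary p values, the filter on low values, all scalings and RNA concentration as a covariate. It was 0 when only the 7 vehicle samples were fitted, 3 with trend and robust prior (with Pllp) or array weights (with Irf3), 3 over the 3 regions with the mouse as replicate block (Opalin, Pllp and Hspb1) and 4 over the 3 regions without it (these and Irf3). Leaving out 1 mouse gave 0 to 4 genes, 0 without mouse 4, 1 (Slc2a5) without mouse 28, 2 or 6, and 4 without mouse 30 (with Pllp and Irf8). Slc2a5 had an adjusted p under 0.05 in 14 of 18 settings (0.00183 to 0.325) and Opalin in 13 of 18 (5.12e-05 to 0.258), and both kept their direction in all. Genes at an unadjusted p under 0.05 numbered 48 to 62 over the settings. The count without overlap, 61, was 55 to 65 under the scalings and the filter and 81 to 127 with 1 mouse left out, where fewer values are compared. The vehicle minus tumor and hypothalamus minus brain stem tests gave 0 genes throughout, and hypothalamus minus hippocampus 0 to 1, the 1 without mouse 28. Of named genes, Lcn2 changed sign without mouse 4 (range -0.14 to 1.10 with 1 mouse left out), Kdm5d without mouse 8 or 6 (-0.13 for mouse 6, range -0.19 to 0.25) and Uty without mouse 28 (range -0.29 to 0.10). No scaling shifted the median gene by more than 0.0087. The cause of these changes was not tested. With 3 and 4 mice, differences of the size of the standard errors given cannot be resolved, and values under about 5 lie near transcripts that female mice lack.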
